A study of Mus musculus with 6 samples.

Results

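A set of 8 genes of protein maturation in the endoplasmic reticulum (ER) was followed in mouse induced renal epithelial cells: Sec61a1, Sec61b and Sec63 of protein translocation, the chaperone cofactor Dnajb11, the glycosylation enzymes Alg8 and Alg9, and Ganab and Prkcsh, the subunits of glucosidase II. They were chosen by symbol, as genes whose human counterparts are linked to polycystic liver or kidney disease and whose products are needed to mature the polycystins, and all 8 were found among the 49671 genes of the count files. Induced renal epithelial cells (iRECs) are fibroblasts that kidney transcription factors have converted to a tubule-like state. The cells came from the strain B6.129S4-Pkd1tm2Ggg/J, and all of them started with both copies of Pkd1 floxed. Clones 4, 7 and 21 each gave a pair of cultures. One was transduced with Cre recombinase and is labelled Pkd1 -/-, and the other received Flp recombinase and is labelled Pkd1 fl/fl. Cells were grown to confluence before RNA extraction. There was 1 library per culture, so 3 per group and 6 in all. Each line is a single clone, and nothing in the labels ties the clones to separate animals. The p-values therefore reflect only how these 3 pairs of cultures vary.

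Membrane and secreted proteins enter the ER through the SEC61 channel, of which Sec61a1 encodes the pore and Sec61b a small subunit. SEC63 helps nascent chains through the channel together with SEC62 and the luminal chaperone BiP. While the chain enters, a preassembled sugar tree is transferred to it. ALG9 adds mannose and ALG8 adds glucose to that tree on its lipid carrier. Glucosidase II then trims glucose from the attached glycan, so that the calnexin cycle can test the fold of the protein, and ERdj3, the product of Dnajb11, delivers unfolded chains to BiP. In kidney and bile duct epithelium these steps are known for their part in bringing polycystin-1, the product of Pkd1, to the cell surface. Germline variants in these genes cause cysts in the liver, the kidney or both, except that SEC61A1 is better known for tubulointerstitial kidney disease.

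Libraries held 25196120 to 46918341 counts, and Cre was deeper than Flp in all but clone 7. The 8 genes had between 281 counts (Sec61b in Flp clone 21) and 34788 counts (Ganab in Cre clone 4) per library, and all 8 passed the filter on low counts. Levels are given as counts-per-million values (CPM) on library sizes scaled by TMM, a normalisation that centres the bulk of genes. Pkd1 itself averaged 123 ± 20.6 CPM with Cre against 198 ± 31.5 CPM with Flp (SD, n = 3), with Cre the lower in each clone. The count covers the whole gene and not the floxed exons alone, so it checks the labels in part. All 4 reprogramming factors were present, from Pax8 at a median of 247 CPM to Hnf4a at 1289 CPM, and 8 of 8 renal epithelial markers had a median of at least 1 CPM. The lowest of these 8 was Aqp1, at a median of 5.36 CPM (0.274 to 12.4). Of 6 fibroblast markers 2 reached a median of 1 CPM, and the summed level of the 6 was 21.1 to 26.7 CPM in Cre and 18.6 to 44.7 CPM in Flp. Those that reached it were Twist1, at a median of 19.5 CPM (15.7 to 26.1), and Col1a1, at 3.89 CPM (2.40 to 18.1). Thy1 had no count in any library. Endothelial markers summed to 0.24 to 0.875 CPM in Cre and 0.242 to 1.80 CPM in Flp, with Cdh5, Kdr and Emcn at 0 throughout. Of 5 blood markers, Cd68 alone reached 1 CPM, at a median of 6.25 CPM. Of 6 hepatocyte and bile duct markers, Krt19 and Sox9 reached it, at medians of 314 and 21.3 CPM, and Alb had a median of 0 CPM.

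The 8 genes differed widely in abundance, and their order was the same in every library. To compare genes, CPM was divided by the length of all annotated exons of a gene in kilobases (kb). Ganab stood highest at a mean of 136 CPM per kb over the 6 libraries, with a range of 126 to 151. Prkcsh, which encodes the partner subunit of the same enzyme, followed at 75.6 CPM per kb (65.1 to 87.7). Dnajb11 stood at 60.7 CPM per kb (54.2 to 65.1) and Sec61a1 at 42.8 CPM per kb (37.1 to 45.8). Sec63 was at 18.6 CPM per kb (14.2 to 21.3), Alg8 at 11.7 (9.25 to 14.4), Alg9 at 8.37 (7.57 to 9.97) and Sec61b at 7.84 (6.53 to 9.69). Ranges over the libraries overlapped between Prkcsh and Dnajb11, Sec63 and Alg8, Alg8 and Alg9, and Alg9 and Sec61b. Within each library these neighbours still kept the same order. Ganab stood clear of Prkcsh, Dnajb11 of Sec61a1, and Sec61a1 of Sec63. The position of Sec61b is the least certain: 17.4% of the 50-base windows in its annotated transcripts also occur in transcripts of 3 other genes, mainly Gm10320, and reads from such stretches cannot be assigned. Gm10320 itself was at 0 to 0.0946 CPM.

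**Figure D1:**
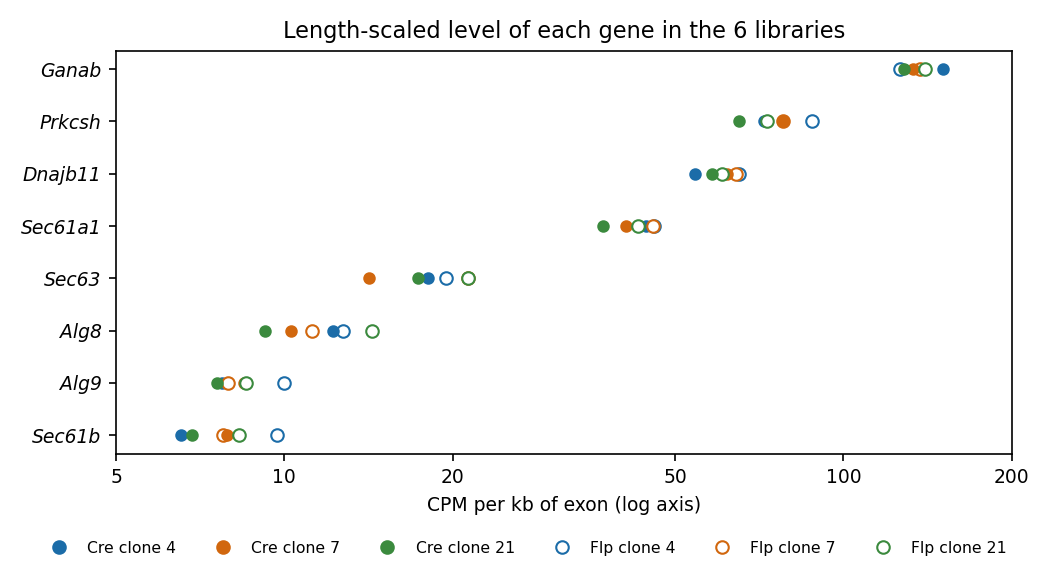
Level per kb of exon (log axis) of each gene in each of the 6 libraries, with filled points for Cre and open points for Flp, coloured by clone. Ganab lies at 126 to 151 CPM per kb in all libraries and Sec61b at 6.53 to 9.69, and the order from top to bottom is the same in each library.

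The main comparison asked whether cells labelled as lacking Pkd1 differed in these genes from the Flp culture of the same clone. None of the 8 genes passed the test. In bulk RNA, fewer cells that express a gene and less of its RNA per cell cannot be told apart. With edgeR's quasi-likelihood test, clone as a block and Benjamini-Hochberg adjustment over all 15355 genes tested, their adjusted p ranged from 0.7002 for Sec63 to 0.9873 for Ganab. Of all genes tested, 0% passed an adjusted p of 0.05. Fitted log2 fold changes (Cre over Flp) lay between -0.33 for Sec63 and 0.03 for Ganab, with a median of -0.15, against 0.00 over all genes tested. Of the 8, 7 were below 0, where 49.3% of all genes tested were. In 5 of 8 the Cre value was the lower in all 3 clones and in 0 of 8 the higher, against 13.1% and 14.6% of all genes, though Prkcsh in clone 7 was lower by a log2 ratio of only -0.00. The genes share the same 6 libraries and are not independent of each other, and these counts are a description of them. At an unadjusted p under 0.05, 1 of the 8 was counted, Sec63, where 6.82% of all genes were. It was also the 1 gene counted by limma-voom and by DESeq2 with the clone block, where 7.27% and 7.37% of all genes were. After adjustment DESeq2 with the block called 1.28% of all genes and edgeR on unfiltered counts 0.792%, with 0 of the 8 among them. The 95% intervals show how large a change these libraries leave possible: the narrowest was that of Sec61a1, -0.39 to 0.11 on the log2 scale, and the widest that of Sec61b, -0.81 to 0.26.

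**Figure D2:**
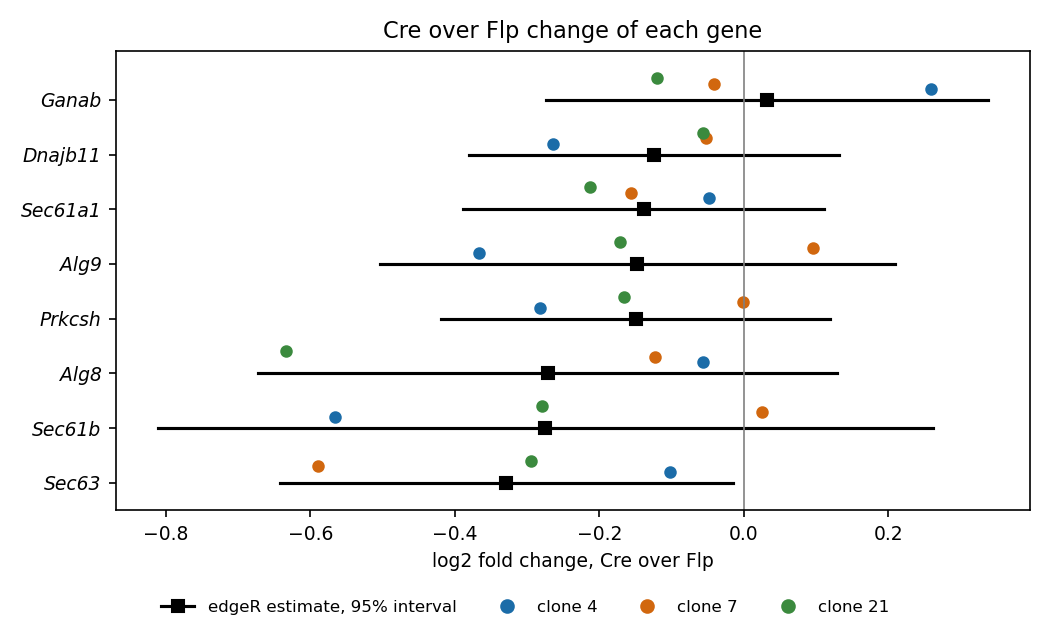
Log2 fold change of each gene, Cre over Flp, with black squares and bars for the edgeR estimate and its 95% interval and coloured points for the ratio within each clone. All intervals but that of Sec63 (-0.64 to -0.02) span 0, and the clone with the most negative ratio differs between genes.

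Among the translocation genes, Sec63 (ENSMUSG00000019802, chromosome 10, 42761496 to 42832514, plus strand, GRCm38) showed the clearest separation of the groups. The Cre libraries of clones 4, 7 and 21 held it at 159, 125 and 152 CPM. Their Flp counterparts held it at 171, 187 and 187 CPM. Every Cre library lay below every Flp library, a pattern found in 3.95% of all genes tested. The Cre mean of 145 ± 18.3 CPM stood against a Flp mean of 182 ± 9.53 CPM (SD, n = 3). The fitted difference was -0.33 on the log2 scale (SE 0.13), or 20.4% lower in Cre, with an edgeR p of 0.04254 and an adjusted p of 0.7002. The size of the difference came largely from clone 7, with a log2 ratio of -0.59 (95% counting interval -0.65 to -0.53). It was -0.10 (-0.16 to -0.05) in clone 4 and -0.30 (-0.35 to -0.24) in clone 21, so the clones differed by more than counting error. Without clone 7 the log2 fold change of Sec63 was -0.20 (edgeR adjusted p = 0.887). The lowest adjusted p of Sec63 under any of 10 settings of edgeR, limma or DESeq2 was 0.3651. Within each library the length-scaled ratio of Sec63 to Sec62, its partner in the channel complex, was 0.287 to 0.307 in the 3 Flp libraries. In Cre it was 0.339 in clone 4, 0.228 in clone 7 and 0.225 in clone 21, so the groups did not separate and the clones went in different directions.

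The bases before the annotated start of Sec63 are shown because this gene had the largest fitted difference of the 8. The stretch is chr10:42761246-42761495 on the plus strand of GRCm38.p6, from RefSeq, with a match to the CCAAT box in capitals.
Sec63: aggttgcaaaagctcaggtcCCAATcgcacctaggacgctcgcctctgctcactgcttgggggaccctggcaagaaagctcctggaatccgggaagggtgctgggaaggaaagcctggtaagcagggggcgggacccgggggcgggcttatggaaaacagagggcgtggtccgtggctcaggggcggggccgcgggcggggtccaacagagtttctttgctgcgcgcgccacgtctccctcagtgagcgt

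Sec61a1 (ENSMUSG00000030082, chromosome 6, 88503579 to 88518905, minus strand), the pore of the channel, was at 298, 275 and 250 CPM in Cre of clones 4, 7 and 21. In Flp it was at 308, 307 and 289 CPM in the same clones. Cre was the lower in each clone, but Cre clone 4 lay above Flp clone 21, so the groups overlapped. The log2 fold change was -0.14 (SE 0.10), and the edgeR adjusted p was 0.8892. Sec61b (ENSMUSG00000053317, chromosome 4, 47474658 to 47483242, plus strand) was the least abundant, at 8.30, 10.0 and 8.68 CPM in the Cre cultures of clones 4, 7 and 21. The Flp cultures had 12.3, 9.87 and 10.5 CPM, and the groups overlapped. Clone 4 showed a log2 ratio of -0.57 and clone 7 of 0.03, the latter within its counting interval of -0.20 to 0.25. The fit gave -0.27 (SE 0.22), and the edgeR adjusted p was 0.9012. Sec61a1 shares 8.16% of its exon bases with the antisense gene Gm44170, which had no count in any library, and Sec63 shares 1.97% with Gm26860, at 0.169 to 0.485 CPM.

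**Figure D3:**
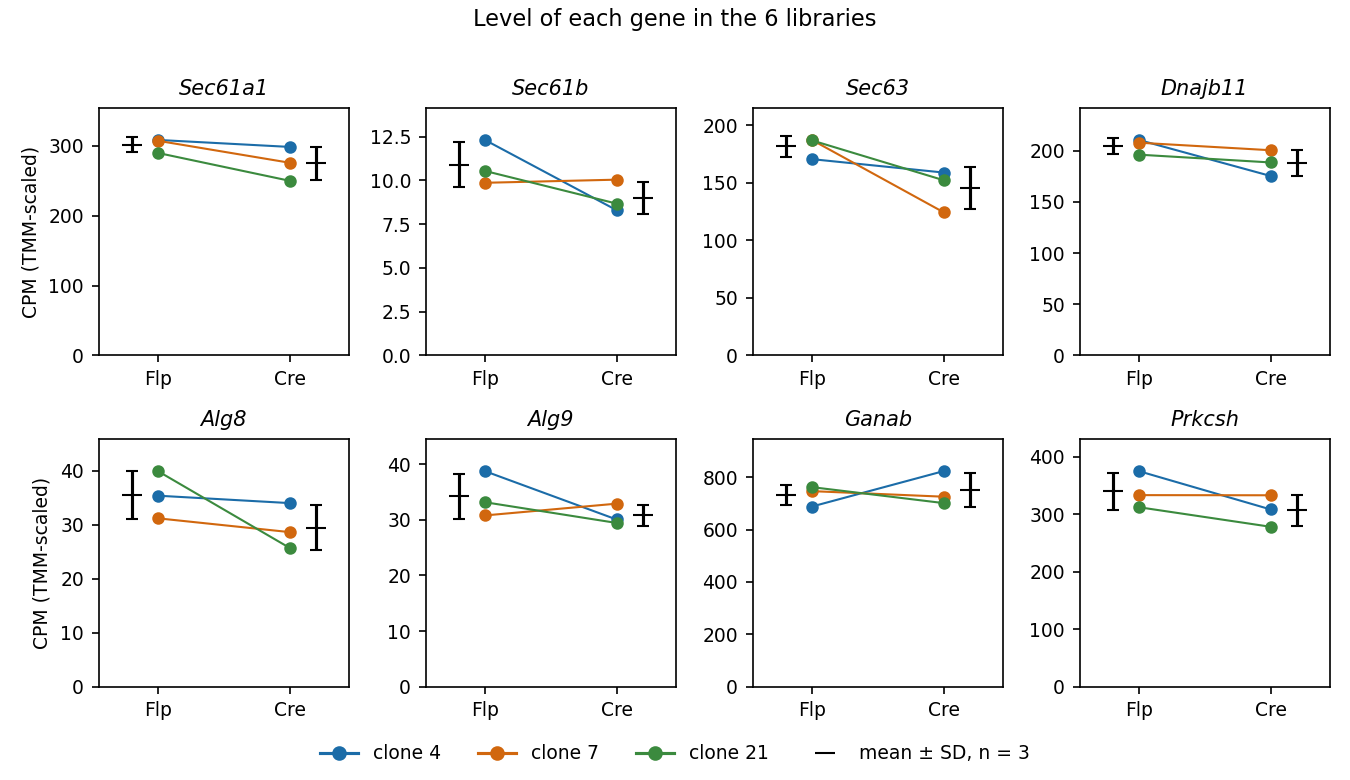
CPM of each gene in the Flp and Cre culture of each clone, with lines joining the cultures of a clone and black marks for the group mean and SD (n = 3), on axes that start at 0. Sec63 is the gene whose Cre values (125 to 159 CPM) all lie below its Flp values (171 to 187 CPM), and Ganab of clone 4 is at 688 CPM in Flp and 823 CPM in Cre.

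Of the glycosylation enzymes, Alg8 (ENSMUSG00000035704, chromosome 7, 97371606 to 97392185, plus strand) had close values in the Cre and Flp cultures of clone 4 (34.0 and 35.4 CPM) and of clone 7 (28.7 and 31.2 CPM). The Cre culture of clone 21 had the lowest of its 6 values, 25.7 CPM, and the Flp culture of that clone the highest, 40.0 CPM. The clone 21 ratio of -0.63 (counting interval -0.75 to -0.51) thus stood apart from the other ratios, -0.06 and -0.12. For Alg8 the fit gave -0.27 (SE 0.16), and the edgeR adjusted p was 0.8524. Alg9 (ENSMUSG00000032059, chromosome 9, 50775019 to 50843542, plus strand) had a different clone out of line. Its Cre and Flp values were 30.1 and 38.8 CPM in clone 4, 32.9 and 30.8 CPM in clone 7, and 29.5 and 33.2 CPM in clone 21. The groups overlapped. The clone 4 ratio was -0.37, the clone 7 ratio 0.10 and the fitted value -0.15 (SE 0.14), with an edgeR adjusted p of 0.9294. Alg9 shares 12.9% of its exon bases with 1110032A03Rik on the opposite strand, which was at 7.98 to 10.6 CPM, so part of its reads cannot be told apart without strand.

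Ganab and Prkcsh encode the catalytic and the regulatory subunit of glucosidase II, and Prkcsh carries the signal that keeps the enzyme in the ER. Ganab (ENSMUSG00000071650, chromosome 19, 8898071 to 8916672, plus strand) had both its highest and its lowest value in clone 4, 823 CPM with Cre and 688 CPM with Flp. Clone 7 had 725 CPM with Cre and 747 CPM with Flp, and clone 21 had 701 and 762 CPM. Ganab was the single gene of the 8 with a fitted value above 0, at 0.03 (SE 0.12, 95% interval -0.27 to 0.34), which was -0.08 without clone 4. Prkcsh (ENSMUSG00000003402, chromosome 9, 22002806 to 22014222, plus strand) went the other way in clone 4, with 308 CPM for Cre and 375 CPM for Flp. The clone 7 cultures were both at 333 CPM, and those of clone 21 were at 278 (Cre) and 312 CPM (Flp). Its fitted log2 fold change was -0.15 (SE 0.11), and the edgeR adjusted p was 0.8883. The length-scaled ratio of Ganab to Prkcsh within a library needs no scaling of library size. The Cre cultures of clones 4, 7 and 21 had 2.09, 1.71 and 1.98, and the Flp cultures had 1.44, 1.76 and 1.91. The means were 1.93 ± 0.197 for Cre and 1.70 ± 0.242 for Flp (SD, n = 3), and the groups overlapped. The log2 difference of the ratio, Cre minus Flp, was 0.54 in clone 4, -0.04 in clone 7 and 0.05 in clone 21.

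Dnajb11 (ENSMUSG00000004460, chromosome 16, 22857845 to 22879634, plus strand) was at 175, 201 and 189 CPM in Cre of clones 4, 7 and 21. In Flp it was at 211, 208 and 196 CPM. Cre was the lower in each clone, by log2 ratios of -0.26, -0.05 and -0.06, and the groups overlapped, since Cre clone 7 lay above Flp clone 21. The fit gave -0.12 (SE 0.10) and an edgeR adjusted p of 0.9092. The length-scaled ratio of Dnajb11 to Hspa5, the gene of BiP, was 0.180 ± 0.00662 in Cre and 0.191 ± 0.0174 in Flp (SD, n = 3). The groups overlapped, and the log2 difference of the ratio, Cre minus Flp, was -0.25, -0.10 and 0.09 in clones 4, 7 and 21.

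Many ER chaperone genes carry elements that respond to unfolded protein through ATF6 and XBP1, and the promoters were searched for them on both strands. The element ERSE was searched as CCAAT and CCACG with 9 bases of any kind between them, and ERSE-II as ATTGG, 1 base of any kind and CCACG. UPRE was searched as TGACGTGG and the CCAAT box as CCAAT, which on 1 strand or the other is also part of ERSE and ERSE-II. RefSeq promoters of GRCm38.p6, from 250 bases before to 50 after the start, were found for 7 of the 8 genes. ERSE-II was found in 1 of the 7, Dnajb11, and in 0.0365% of all 32851 promoters. ERSE and UPRE were found in none of the 7 and in 0.119% and 0.676% of all promoters. For Prkcsh and Alg9, only 68 and 44 bases of the searched stretch lay before both the RefSeq and the GENCODE start. A CCAAT box was found in 4 of the 7 (Sec63, Dnajb11, Ganab and Alg9) and in 37.4% of all promoters. The element of Dnajb11 is set beside that of 1 gene of the oligosaccharyltransferase with the same element and 3 chaperone genes with ERSE, in windows of 30 bases with the element in capitals. The windows are chr16:22857843-22857872 for Dnajb11 and chr3:89246481-89246510 for Krtcap2, both on the plus strand. Those of the chaperones are chr2:34772020-34772049 (plus) for Hspa5, chr8:84847069-84847098 (minus) for Calr and chr11:50325794-50325823 (minus) for Canx.
Dnajb11: ccggcggcgATTGGCCCACGcctggctgct
Krtcap2: gggacacggATTGGACCACGgacggggcgt
Hspa5: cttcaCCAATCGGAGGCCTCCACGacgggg
Calr: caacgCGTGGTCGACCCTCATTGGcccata
Canx: attgaCCAATCACCACGCTCCACGaagaat

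In Dnajb11 the element begins 7 bases and in Krtcap2 17 bases after the RefSeq start, while the others begin 65 (Hspa5), 162 (Calr) and 145 bases (Canx) before it. The GENCODE starts of Hspa5, at 34771970, and of Krtcap2, at 89245966, lie before their windows, so these positions depend on the annotation. The bases upstream of Dnajb11, chr16:22857595-22857844, held 4 further CCAAT boxes, all read on the opposite strand and shown in capitals.
Dnajb11 upstream: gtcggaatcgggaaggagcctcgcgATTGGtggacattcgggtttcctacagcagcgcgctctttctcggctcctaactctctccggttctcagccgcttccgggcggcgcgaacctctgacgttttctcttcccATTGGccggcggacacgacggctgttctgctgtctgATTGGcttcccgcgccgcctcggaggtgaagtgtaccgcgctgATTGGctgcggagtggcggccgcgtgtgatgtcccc

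Of 62 other genes of the pathway with a promoter entry, 6 held an ERSE, with log2 fold changes of -0.23 for Calr, -0.14 for Canx, -0.13 for Hsp90b1, -0.04 for Hspa5, -0.02 for Alg12 and 0.33 for Dnajc3, and 0 of the 6 passed the edgeR test. Krtcap2 stood at -0.28 (SE 0.17) with clone ratios of -0.51, 0.17 and -0.49. It shares 15.7% of its exon bases with Trim46 on the other strand.

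Levels of the 8 genes were also compared between the clones, with the effect of Cre or Flp taken out in the same edgeR fit. None passed, with unadjusted p from 0.3169 for Prkcsh to 0.9531 for Ganab and adjusted p from 0.8514 to 0.9918. Of all genes tested, 0.00651% passed an adjusted p of 0.05 and 8% an unadjusted p of 0.05. The likelihood ratio test of DESeq2 called 2.7% of all genes and 0 of the 8. Differences between the most and the least abundant library were small, from 1.20-fold for Ganab and Dnajb11 to 1.55-fold for Alg8. The highest value was found in Flp clone 4 for 5 of the 8 (Prkcsh, Sec61b, Sec61a1, Alg9 and Dnajb11), where Ganab had its lowest. Log2 CPM of the 8 genes over the 6 libraries correlated with a median Pearson r of 0.45 over 28 pairs, of which 24 were above 0. The highest was 0.94 between Sec61b and Alg9, and all 4 negative values involved Ganab, down to -0.68 with Dnajb11. These correlations rest on 6 libraries that share their scaling factors and depth, and are a description.

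Likeness to 77 other pathway genes was measured in the same way, as Pearson r over the 6 libraries. Alg8 was most like Ssr4, a subunit of the translocon-associated TRAP complex (r = 0.98), and Prkcsh most like Rpn1, a ribophorin of the oligosaccharyltransferase (r = 0.98). Sec61b (r = 0.97) and Dnajb11 (r = 0.87) were both most like Sdf2l1, a lumenal chaperone cofactor. Sec61a1 was most like Sil1, a nucleotide exchange factor of BiP (r = 0.97), Alg9 like Krtcap2 (r = 0.95), Sec63 like Edem1, which takes part in the disposal of misfolded glycoproteins (r = 0.91), and Ganab like Uggt1, the folding sensor that adds glucose back (r = 0.83). The highest of 77 values over 6 libraries is large by its selection alone.

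The other genes of ER protein maturation were taken from 7 lists with 78 genes, of which 77 were tested. Srp54a was listed at 0 in every library and has near-identical copies beside it in the genome. As with the 8 genes, 0 of the 77 passed an adjusted p of 0.05 by edgeR. At an unadjusted p under 0.05, 3 were lower and 2 higher in Cre, against 3.28% and 3.54% of all genes tested. The median log2 fold change was -0.09, with 55 of 77 below 0, where 49.3% of all genes tested were. In all 3 clones 22 were lower and 5 higher in Cre, against 13.1% and 14.6% of all genes. The pathway genes share the same 6 libraries and are not independent of each other. Their counts, here and by list, are a description.

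All 9 translocon genes were below 0, with a median of -0.12, though Tram1 was at only -0.0045 and 4 of the 9 were lower in all 3 clones. Tram2, a relative of the translocating chain protein TRAM, averaged 39.6 ± 2.05 CPM with Cre against 51.0 ± 7.69 CPM with Flp (SD, n = 3), or -0.36 on the log2 scale (edgeR adjusted p = 0.6864). Ssr4 was at -0.29, with -0.59 in clone 21. Ssr2, the most abundant per length at 85.3 CPM per kb, had clone ratios of -0.41, 0.25 and -0.11, and Sec61g, the least abundant at 1.24 CPM per kb, 0.45, -0.48 and -0.46. Sec61g had between 63 counts (Flp clone 4) and 153 counts (Flp clone 7) per library. Sequence shared with other genes was measured for the 8 genes alone, so its part in the low level of Sec61g was not tested. Genes of the signal recognition particle and its receptor, which bring ribosomes to the channel, had a median of -0.05 over 7 tested, which was -0.02 without clone 4 and -0.08 without clone 21. Srp19 was at 0.23 and Srprb at -0.17, and Srp68 (48.1 CPM per kb) and Srp9 (4.17 CPM per kb), its most and least abundant genes, were at -0.02 and -0.04. The 5 signal peptidase genes had a median of -0.02 (-0.09 to -0.03 when each clone was left out in turn), with the abundant Spcs3 at 0.03 and Sec11c at -0.02. None of these 5 had the same direction in all clones.

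The 21 genes that build the lipid-linked sugar tree, the pathway of Alg8 and Alg9, had a median of -0.06, with 14 below 0. It was -0.04 without clone 21. Srd5a3, which makes the lipid dolichol, averaged 32.6 ± 4.80 CPM with Cre against 25.2 ± 4.44 CPM with Flp (SD, n = 3), or 0.37 on the log2 scale (edgeR adjusted p = 0.6954). Dpm3, which anchors the dolichol-phosphate mannose synthase, was at -0.55, from means of 13.0 ± 2.53 CPM with Cre and 19.4 ± 6.13 CPM with Flp (SD, n = 3). Mpdu1, the most abundant of the list at 30.9 CPM per kb, was at -0.01, and Alg6, which adds the glucose before ALG8, was the least abundant at 1.61 CPM per kb and at -0.12. The length-scaled ratio of Alg8 to Alg6 was 5.51 to 8.25 over the 6 libraries. The 12 genes of the oligosaccharyltransferase, which moves the tree to the protein, had a median of -0.13 with 8 below 0. This median was -0.04 without clone 4 and -0.21 without clone 7. Ost4 averaged 34.1 ± 1.37 CPM with Cre against 45.1 ± 4.76 CPM with Flp (SD, n = 3), or -0.40 on the log2 scale (edgeR adjusted p = 0.6403), but 53.2% of its exon bases overlap Agbl5. The catalytic subunit Stt3a was at -0.25, Rpn1 at -0.16 and the abundant Rpn2 at -0.25, the last with -0.74 in clone 21 and 0.00 in clone 7. Dad1, the least abundant per length at 14.5 CPM per kb, had clone ratios of -0.38, 0.95 and 0.71. The 84 expressed genes within 5 Mb of Dad1 on chromosome 14 had median ratios of 0.05, 0.93 and 0.79 in the same clones, and their part in its value was not tested.

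Genes of glucose trimming and the calnexin cycle, to which Ganab and Prkcsh belong, had a median of -0.16 over 13, with 10 below 0 and 7 lower in all 3 clones. Mogs, the glucosidase that acts just before glucosidase II, was at -0.24 and calreticulin, Calr, the most abundant at 464 CPM per kb, at -0.23. Edem1 was at -0.19 and Uggt1 at -0.04. Uggt2 stood above 0, with a mean of 172 ± 44.1 CPM for Cre and 120 ± 30.4 CPM for Flp (SD, n = 3). Its fitted value was 0.53 (SE 0.11), and the ratios of clones 4, 7 and 21 were 0.69, 0.33 and 0.57. Its adjusted p was 0.6065 by edgeR and 0.04558 by DESeq2 with the clone block, which of the 77 called Uggt2 alone. Uggt2 lies on chromosome 14 too, where its 20 expressed neighbours within 5 Mb had median ratios of -0.13, 0.66 and 0.64. The part of these neighbours in the value of Uggt2 was not tested. BiP and its cofactors had a median of -0.02 over 10 genes, 5 of them below 0, and of -0.08 without clone 7 and -0.0009 without clone 4. Hspa5 was the most abundant at 328 CPM per kb and at -0.04 (SE 0.11), Sil1 was at -0.35 (edgeR adjusted p = 0.6954), Sdf2l1 at -0.23 and Dnajc1, the least abundant at 4.66 CPM per kb, at 0.01.

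**Figure D4:**
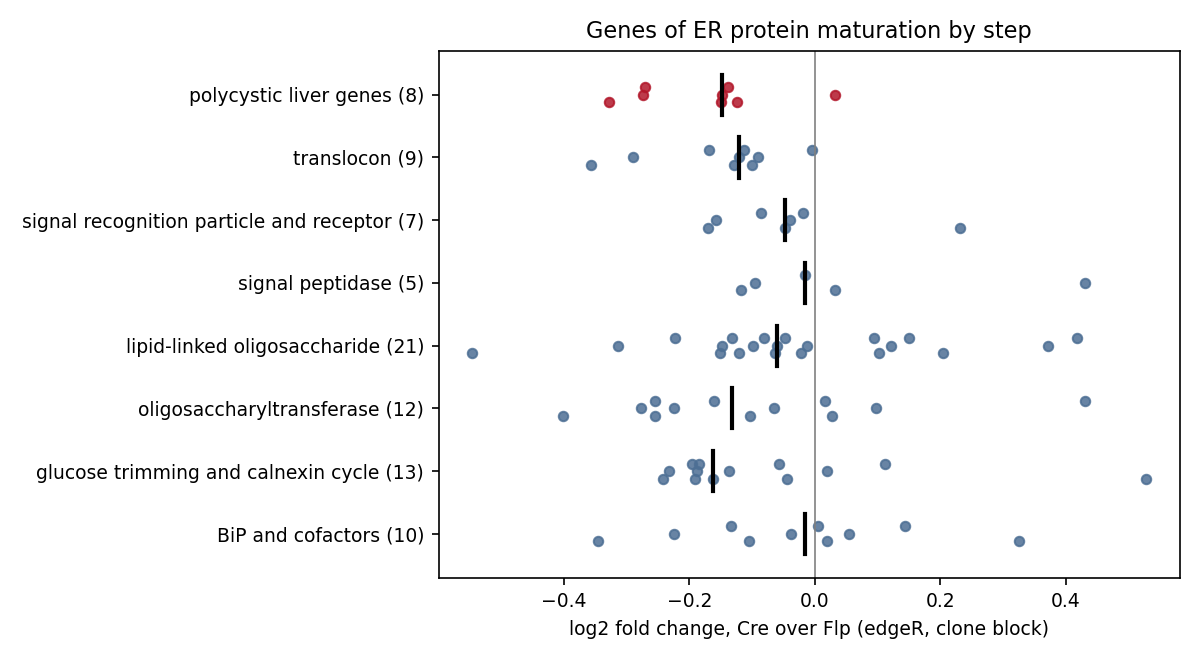
Log2 fold change, Cre over Flp, of each tested gene of the polycystic liver set (red) and of 7 lists of ER protein maturation (blue), with the number tested in brackets and black bars at the medians. The median of the 8 genes is -0.15 and those of the other lists lie between -0.16 and -0.02, and the highest point is Uggt2 at 0.53.

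Expressed genes within 5 Mb of each of the 8 genes, 36 to 169 in number, had median log2 ratios between -0.13 and 0.10 in every clone. In clone 4 the neighbour medians were -0.13 for Prkcsh, Sec61b and Ganab, whose own ratios were -0.28, -0.57 and 0.26. For Dnajb11 the neighbours stood at -0.09 in that clone, beside its own -0.26. They stood at -0.05 for Sec61a1 and Alg8 and at 0.01 for Sec63 and Alg9. The part of the neighbours in these values was not tested. For Sec63 the neighbour medians were 0.01, -0.09 and -0.03 in clones 4, 7 and 21, beside its own -0.10, -0.59 and -0.30. For Alg8 in clone 21 the neighbours stood at -0.02, beside its own -0.63.

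The RNA of genes whose proteins depend on this machinery was measured beside it, and no protein was measured. Pkd1, whose exons share 3.98% of their bases with Tsc2, had a log2 fold change of -0.69 (SE 0.16), its partner Pkd2 of 0.00 (SE 0.14), the fibrocystin gene Pkhd1 of 0.09 (SE 0.11) and the Wnt co-receptor gene Lrp5 of 0.03 (SE 0.13). The adjusted p of Pkd1 was 0.6065 by edgeR and 0.02754 by DESeq2 with the clone block. In clone 7, Pkd1 (-1.12) and Sec63 (-0.59) both had their most negative ratio, while Alg8, Sec61a1 and Ganab had theirs in clone 21 and Prkcsh, Sec61b, Alg9 and Dnajb11 theirs in clone 4.

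Values for all 8 genes are also listed in the authors' deposited table, which compares Cre with Flp. Its log2 fold changes run from -0.30 (standard error 0.14) for Sec63 to 0.03 for Ganab, 7 of 8 below 0. The adjusted p in the authors' deposited table is 0.4863 for Sec63, 0.9487 for Alg8 and 0.9991 for the other 6, where 1.37% of the genes with an adjusted p in it are below 0.05. Sec63 is the gene of the 8 with an unadjusted p under 0.05 in the authors' deposited table, at 0.03302, as are 6.02% of its genes. Mean normalised counts in the authors' deposited table were 0.947 to 1.04 times those computed here for 7 of the genes and 1.18 times for Sec61a1, whose level therefore depends on the source.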

How the data were processed

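Total RNA of 6 cultures was sequenced. Per the submitters' processing notes, reads were handled with STAR 2.5.2b-2, Trim Galore 0.4.3.0, DESeq2 2.11.40.1, FastQC 0.67 and featureCounts 1.6.0.3 on GRCm38 (mm10). Whether counting used strand, and which annotation, is not given in the sources used here. The deposited values are raw counts for each Ensembl gene, with no normalization. They also deposited a comparison table with, per the file headers, a base mean (a signal over libraries), a log2 fold change, its standard error and a Wald statistic (each a score) and raw and adjusted p-values. Its numerator is not stated and was read as Cre, because 95.6% of 12823 genes had the sign found here.

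Symbols, coordinates and exon lengths came from GENCODE M21 (GRCm38), which held 49412 of the 49671 identifiers. The fit used edgeR 4.0.16 under R 4.3.3 (beside DESeq2 1.42.0 and limma 3.58.1): filterByExpr, TMM and the quasi-likelihood test blocked by clone, with 2 residual degrees of freedom. P-values of 15355 genes were adjusted by Benjamini-Hochberg at a threshold of 0.05. Standard errors follow from the F statistic. A prior count of 2 was added for each clone's log2 ratio, and the counting intervals are exact binomial at 95% and cover counting error only. The limit that 0 counts allow was 0.0632 CPM (deepest library) to 0.121 CPM. The code was tested on simulated data.

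The labels give the Cre and Flp culture of a pair the same clone number, hence the block. Same-clone deviations from group means had r of 0.20, 0.11 and 0.30. Other named genes were, per list, the 2 of smallest p with 1 direction in all clones and a mean of at least 1 CPM, the most and the least abundant per length and, per gene of the 8, the most alike. The genes with an ERSE, Canx, Sec62, Pkhd1 and Lrp5 were named outside this rule. So were Tram1 and Srp54a, as well as Spcs1, Edem2 and Dpm1, which were picked after their values were seen. The 8 genes and the lists were chosen with earlier results of these data known. Alternatives were no block, other size factors, DESeq2, limma-voom, no filter and leaving out each clone. Figures used matplotlib 3.10.9.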

Additional observations from a re-analysis of the deposited data

Results flagged for a closer look

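In some genes at least 1 clone was higher and at least 1 lower in Cre, each beyond the counting interval of its ratio. This held for 1 of the 8 genes, for 29 of the 77 other pathway genes tested and for 3 of the 4 cyst protein genes (Pkd1, Pkd2, Pkhd1 and Lrp5). The share over all genes tested was not computed. Counting intervals are narrower for genes with more counts, which meet the rule at smaller ratios. These counts are therefore a description and not a result about these sets. With 1 pair of libraries per clone the difference between clones was not tested. Among the 8 genes it was Ganab, whose log2 ratios of 0.26, -0.04 and -0.12 in clones 4, 7 and 21 spanned 0.38. Of the other genes named here, the span was 1.39 for Dpm1, 1.33 for Dad1, 1.06 for Spcs1, 0.93 for Sec61g and 0.81 for Edem2. It was 0.73 for Spcs3 and for Dnajc3, 0.68 for Krtcap2, 0.65 for Ssr2, 0.62 for Pkd2, 0.52 for Lrp5 and 0.48 for Sec62. For Srp9 it was 0.36, for Dnajc1 0.33, for Hsp90b1 0.32, for Pkhd1 0.29, for Uggt1 0.28, for Srp68 0.27 and for Hspa5 0.20.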

How the results depend on the processing

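The 8 genes passed the adjusted threshold under none of the 10 settings, and their median log2 fold change stayed between -0.21 and -0.11. In all of these settings 7 were below 0, except without clone 4, where all 8 were. Sec63 was the sole gene of the 8 at an unadjusted p under 0.05, in 8 of the 10 settings, and missed it without clone 7 and without clone 21. Over all genes, edgeR called 0 for Cre against Flp with the block (1047 at an unadjusted p under 0.05). It also called 0 without the replicate block (716 at an unadjusted p under 0.05). The edgeR count stayed at 0 with other size factors, without any 1 clone, and at an adjusted p under 0.1. Limma-voom called 0 too (1116 at an unadjusted p under 0.05). DESeq2 called 196 with the clone block and 14 without it, and edgeR with all genes kept called 224. For differences between clones, edgeR called 1 gene, 519 without the filter and 0 to 4 without 1 clone, and DESeq2 called 414. The cause of these differences was not tested. No call of the 8 genes changed without the block.

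Signs turned for some values near 0 when 1 clone was left out: Ganab (-0.082 to 0.11), Ssr2 (-0.26 to 0.067), Srp68 (-0.081 to 0.052), Srp9 (-0.14 to 0.042), Spcs3 (-0.11 to 0.26), Sec11c (-0.070 to 0.030), Mpdu1 (-0.039 to 0.012), Hspa5 (-0.079 to 0.016), Dnajc1 (-0.091 to 0.078), Uggt1 (-0.14 to 0.0070) and Pkd2 (-0.16 to 0.15). Pkd2 was also at -0.0072 without the block, at -0.0011 with other size factors and with DESeq2, and at -0.0099 with DESeq2 without the block. Sec61b, with the fewest counts of the 8 genes, had the widest 95% interval, -0.81 to 0.26.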

Other observations

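Genes of the pathway that lie on chromosome 14 or on distal chromosome 2, picked after their values were seen, are given beside the expressed genes within 5 Mb of each. On chromosome 14, Spcs1 of the signal peptidase had log2 ratios of -0.24, 0.69 and 0.83 (clones 4, 7 and 21), beside neighbour medians of 0.18, 0.60 and 0.87. Dnajc3, a BiP cofactor, had -0.16, 0.55 and 0.57 beside -0.06, 0.66 and 0.64. On chromosome 2, clone 21 had ratios of -0.74 for Rpn2, -0.65 for Edem2 and -0.81 for Dpm1, beside neighbour medians of -0.53, -0.54 and -0.55. In clones 4 and 7, Dpm1 stood at 0.59 and -0.43 beside neighbour medians of -0.06 and 0.07. The pathway lists therefore include genes in such stretches, and the part of the neighbours in their medians was not tested.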
